A study of Mus musculus with 12 samples.

Results

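The mouse Cyp3a genes encode cytochrome P450 enzymes of subfamily 3A, and 8 of them, Cyp3a11, Cyp3a13, Cyp3a16, Cyp3a25, Cyp3a41a, Cyp3a41b, Cyp3a44 and Cyp3a59, were followed here in the livers of female and male mice fed chow or chow with simvastatin. The members were taken by gene name, although earlier results of these data were known when the family was chosen, and all 8 were found among the 48526 genes of the deposited expression table. All 8 were also in the 11968 genes of the filtered count table. Cyp3a16, Cyp3a41a, Cyp3a41b and Cyp3a44 entered that table through the female livers alone, since in males each lay below the filter of 1 CPM, where CPM are the counts of a gene scaled to a fixed library size.

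RNA was sequenced from 12 livers, 3 in each of 4 groups: females on chow, females on statin, males on chow and males on statin. All mice were C57BL/6J, which is an inbred laboratory strain, with no engineered allele in any group, and were 8 to 10 weeks old when the diets began. The statin groups ate the diet with 0.1 g of simvastatin per kg for 4 weeks. The labels refer this dose to body weight and the methods of the study to food weight. The comparisons ask whether the statin diet changed these transcripts in each sex, and whether the sexes differed. Each library is 1 mouse, so p-values rest on the spread among 3 livers a group.

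P450 enzymes of this subfamily sit in the membrane of the endoplasmic reticulum and oxidize drugs, steroids and bile acids, using electrons passed on by P450 reductase. CYP3A enzymes are a main route of simvastatin oxidation in the liver. Their genes are known to be induced when the xenobiotic receptors PXR and CAR bind drugs or bile acids, and several mouse members are expressed mainly in one sex under the pattern of growth hormone secretion.

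Total counts per liver ran from 46066381 to 60419223, so that the floor of 3 counts corresponds to 0.0497 to 0.0651 CPM. These totals lie well above the average number of reads per sample that the methods of the study state, and the sources used here do not say why. The floors, and the counting intervals given for Cyp3a41b, cover counting error only and take each count as 1 read, whereas the intervals of fold changes include the spread among livers. Levels below are CPM after scaling between libraries by the trimmed mean of M-values (TMM), whose factors ran from 0.924 to 1.05. The 5 hepatocyte markers summed to 92552 to 125803 CPM in females on chow, 110905 to 148682 in females on statin, 72013 to 121568 in males on chow and 76365 to 87848 in males on statin. Of the 4 pancreatic acinar markers, 3 stayed below the floor in every liver. Markers of Kupffer cells, the resident macrophages, summed to 423 to 520 CPM in females on chow, 373 to 645 in females on statin, 223 to 337 in males on chow and 223 to 274 in males on statin. In the same order of groups, markers of liver endothelial cells summed to 178 to 185, 154 to 201, 111 to 147 and 120 to 143 CPM. Those of stellate cells summed to 268 to 327, 211 to 297, 173 to 189 and 169 to 224 CPM. Of the 4 markers of intestinal epithelium, 1 (Sis) stayed below the floor in every liver, and the list summed to 51.7 to 63.9 CPM in females on chow, 51.9 to 112 in females on statin, 74.4 to 125 in males on chow and 60.9 to 113 in males on statin. Whether cell composition takes part in the differences below was not tested, and in whole liver fewer cells of a type cannot be told apart from less RNA per cell.

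Of the members, 7 lie in 1 cluster on chromosome 5 (GRCm38), from the start of Cyp3a16 at 145436309 to the end of Cyp3a59 at 146113287. The order in the GENCODE annotation is Cyp3a16, Cyp3a41b, Cyp3a41a, Cyp3a44, Cyp3a11 and Cyp3a25, all on the minus strand, followed by Cyp3a59 on the plus strand. Cyp3a13 lies apart at 137892932 to 137921619, and it overlaps the gene model Gm15502 on the same strand. Each member has 13 exons in its longest coding transcript, with a coding length of 1512 or 1515 bases.

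The sequences before the RefSeq transcription starts fall into families, and they are shown beside the levels by sex given further on. Among Cyp3a16, Cyp3a41a, Cyp3a41b and Cyp3a44, the 250 bases before the start were 90.9% to 99.6% identical in a global alignment. Those of Cyp3a25 and Cyp3a59 were 94.8% identical to each other, and 49.1% to 52.0% identical to the first family. Cyp3a11 was 71.7% to 76.2% identical to the first family there, although its coding sequence was 92.8% to 95.2% identical to theirs. Capitals mark exact matches on either strand to AGGTCA, to the related unit AGTTCA or to the longer element CAAAGTCCA, and the letters are from RefSeq on GRCm38.p6, 5′ to 3′ on the strand of the gene. The first 3 are Cyp3a16 (chr5:145469724-145469973, minus), Cyp3a41a (chr5:145720137-145720386, minus) and Cyp3a44 (chr5:145805875-145806124, minus), then Cyp3a11 (chr5:145879965-145880104, minus), Cyp3a25 (chr5:146009619-146009868, minus) and Cyp3a59 (chr5:146079008-146079256, plus). Only bases outside annotated exons are printed, which leaves 140 bases of Cyp3a11 and 249 of Cyp3a59.
Cyp3a16: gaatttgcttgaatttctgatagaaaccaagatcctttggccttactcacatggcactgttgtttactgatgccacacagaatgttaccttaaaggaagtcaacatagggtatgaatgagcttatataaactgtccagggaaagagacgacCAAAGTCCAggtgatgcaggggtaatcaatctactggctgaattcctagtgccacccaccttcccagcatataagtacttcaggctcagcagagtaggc
Cyp3a41a: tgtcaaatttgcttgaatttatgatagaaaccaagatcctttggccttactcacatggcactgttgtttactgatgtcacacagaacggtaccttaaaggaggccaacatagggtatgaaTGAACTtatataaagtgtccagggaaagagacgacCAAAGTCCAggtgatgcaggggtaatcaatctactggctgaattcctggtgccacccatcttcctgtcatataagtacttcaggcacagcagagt
Cyp3a44: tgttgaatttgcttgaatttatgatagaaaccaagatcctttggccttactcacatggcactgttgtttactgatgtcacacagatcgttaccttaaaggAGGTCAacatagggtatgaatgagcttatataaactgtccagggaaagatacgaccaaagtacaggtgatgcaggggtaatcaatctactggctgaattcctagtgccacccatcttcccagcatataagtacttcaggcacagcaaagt
Cyp3a11: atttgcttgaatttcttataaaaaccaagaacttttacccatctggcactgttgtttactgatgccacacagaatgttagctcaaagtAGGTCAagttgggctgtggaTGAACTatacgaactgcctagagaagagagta
Cyp3a25: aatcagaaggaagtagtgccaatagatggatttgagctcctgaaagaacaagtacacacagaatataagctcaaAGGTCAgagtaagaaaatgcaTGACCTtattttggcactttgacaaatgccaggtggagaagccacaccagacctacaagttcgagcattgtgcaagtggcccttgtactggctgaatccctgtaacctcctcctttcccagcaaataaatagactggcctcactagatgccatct
Cyp3a59: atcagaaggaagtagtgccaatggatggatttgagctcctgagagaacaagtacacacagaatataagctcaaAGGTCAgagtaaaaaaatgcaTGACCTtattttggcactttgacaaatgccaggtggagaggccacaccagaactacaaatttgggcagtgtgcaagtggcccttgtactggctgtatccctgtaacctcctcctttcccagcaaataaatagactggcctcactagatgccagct

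AGGTCA and AGTTCA are 6-letter units that nuclear receptors such as PXR, CAR and HNF4A are known to bind in pairs, and CAAAGTCCA is a form of the HNF4A element. AGGTCA was found before Cyp3a11, Cyp3a25, Cyp3a44 and Cyp3a59, against 13.8% of 27025 mouse promoters of the same length. It occurred on both strands in Cyp3a25, at -176 to -171 and -155 to -150 from the start, and in Cyp3a59, at -177 to -172 and -156 to -151. AGTTCA was found before Cyp3a11, Cyp3a41a and Cyp3a41b, against 11.9% of promoters. CAAAGTCCA was found before Cyp3a11, Cyp3a16, Cyp3a41a and Cyp3a41b, against 0.381% of promoters. The match of Cyp3a11, at -109 to -101 from the RefSeq start, lies within an annotated exon and so outside the bases printed above. TTCNNNGAA, the palindrome that STAT5 is known to bind, was in none of the 8 windows and in 7.18% of promoters. These matches describe letters and not binding, and members of 1 family are not independent observations of a motif.

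Cyp3a41a and Cyp3a41b are nearly the same gene. Their coding sequences differed at 2 of 1515 bases, counted from 1 at the start codon as G120A and G336T, with the base of Cyp3a41a first. The stretch of 50 bases around the first difference, as long as 1 read, is shown with the differing base in capitals.
Cyp3a41a: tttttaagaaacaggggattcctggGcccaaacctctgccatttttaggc
Cyp3a41b: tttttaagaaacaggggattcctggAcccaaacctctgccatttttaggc
Of all 50-base windows of the Cyp3a41a transcript, 1.39% were found in no other gene's transcripts, and 93.7% also occurred in Cyp3a41b. The share of such unique windows was 6.50% for Cyp3a41b, 72.0% for Cyp3a59, 73.2% for Cyp3a25, 73.5% for Cyp3a44, 85.2% for Cyp3a11, 89.3% for Cyp3a16 and 100% for Cyp3a13. How the authors' counting treated reads that match more than 1 place is not given in the sources used here, so the split between Cyp3a41a and Cyp3a41b is uncertain. If such reads were left out, members with fewer unique windows could be understated more than others. The order of levels per kb and the shares of the summed level given below carry the same limit.

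The members differed widely in level within a liver. Per kb of the longest coding transcript, Cyp3a11, the main CYP3A enzyme of adult mouse liver, was the highest in every group. It stood at 906 ± 206 CPM per kb in females on chow (SD, n = 3 here and below), 1047 ± 302 in females on statin, 1108 ± 91.8 in males on chow and 729 ± 50.7 in males on statin. Cyp3a25 followed in each group, at 111 ± 17.8 and 175 ± 31.3 CPM per kb in females on chow and statin, and 322 ± 50.9 and 253 ± 44.9 in males. In females on chow the next levels were Cyp3a41a at 92.6 ± 6.69, Cyp3a13 at 66.7 ± 5.88, Cyp3a44 at 57.9 ± 27.2, Cyp3a16 at 32.6 ± 13.2, Cyp3a59 at 9.23 ± 2.70 and Cyp3a41b at 5.55 ± 0.856 CPM per kb. Neighbours in that order overlapped between livers for Cyp3a25 with Cyp3a41a, Cyp3a13 with Cyp3a44, and Cyp3a44 with Cyp3a16.

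In females on statin, Cyp3a25, Cyp3a44, Cyp3a41a, Cyp3a16 and Cyp3a13 formed a run in which each overlapped the next, with means from 175 down to 104 CPM per kb. Cyp3a59 at 16.2 ± 6.61 and Cyp3a41b at 11.4 ± 2.58 CPM per kb came last and overlapped each other. In males on chow, Cyp3a13 at 76.5 ± 8.85 and Cyp3a59 at 17.3 ± 1.14 CPM per kb came after Cyp3a25 with no overlap between neighbours. The other 4 genes lay at or below 0.247 CPM per kb in every male liver on chow and at or below 0.266 on statin.

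**Figure D1:**
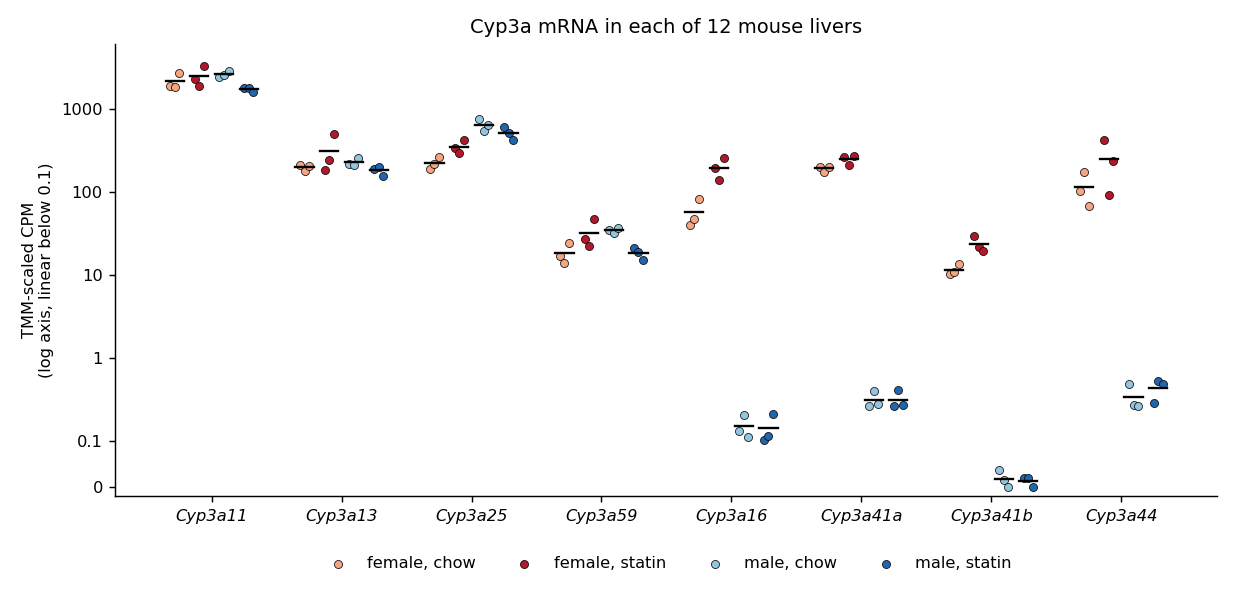
TMM-scaled CPM of each Cyp3a member (horizontal axis) in each of the 12 livers; points are livers, black lines are means of 3 livers, and the vertical axis is logarithmic and linear below 0.1. Cyp3a16, Cyp3a41a, Cyp3a41b and Cyp3a44 lie above 10 in every female liver and below 0.53 in every male liver.

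Cyp3a16 rose with the statin diet in females and was the only member to pass an adjusted p of 0.05 there. It is known as a form of fetal and newborn liver. The female livers on chow held 39.8, 47.2 and 82.5 CPM, and those on statin 191, 138 and 258. All 3 statin livers were above all 3 chow livers. The log2 fold change was 1.79 ± 0.285 (SE), with a 95% interval of 1.17 to 2.41 and adjusted p = 0.0382 by edgeR's quasi-likelihood test with Benjamini-Hochberg adjustment over 11968 genes, a 3.46-fold higher level. Of all genes tested in females 0.1% were called, and 0.0836% were called higher, so that 1 of 8 members was called in each count. DESeq2 called 3 of 8, Cyp3a16 (adjusted p = 8.52e-06), Cyp3a41b (adjusted p = 0.000951) and Cyp3a25 (adjusted p = 0.0427), while it called 2.26% of all genes. Limma on log2(CPM + 1) called Cyp3a16 and Cyp3a41b, against 0.109% of all genes, and edgeR without a filter on low counts called the same pair, against 0.563%.

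The call on Cyp3a16 was close to the threshold. It was lost when any of 9 single livers was left out, namely female chow 1 and 2, female statin 3 and each of the 6 males, at adjusted p from 0.0593 to 0.244. It was held without female chow 3, female statin 1 or female statin 2, the lowest adjusted p being 0.0152. It was also lost when scaling by library size alone (adjusted p = 0.0641), with a stricter filter of a mean of 10 CPM or more (adjusted p = 0.0548) and when only the female groups entered the fit (adjusted p = 0.324). Without each of the 12 in turn the log2 fold change stayed between 1.56 and 2.17.

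The other 3 genes of the first family were higher on average in females on statin, but none passed the adjusted threshold. Cyp3a41b measured 10.2, 10.7 and 13.5 CPM on chow and 29.6, 21.8 and 19.4 on statin, with no overlap. Its log2 fold change was 1.04 ± 0.214 (edgeR adjusted p = 0.0968). Cyp3a41a, its near copy, measured 199.96, 175 and 197 CPM on chow and 263, 210 and 270 on statin, again with no overlap, and the log2 fold change was 0.38 ± 0.152 (edgeR adjusted p = 0.397).

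The summed reads of Cyp3a41a and Cyp3a41b gave a log2 fold change of 0.42 ± 0.151 (edgeR adjusted p = 0.328), close to that of Cyp3a41a, which holds most of the reads. Cyp3a44 was the most variable member in females. It measured 103, 172 and 66.4 CPM on chow and 420, 92.1 and 235 on statin, so that the groups overlapped. Its log2 fold change was 1.13 ± 0.453 (edgeR adjusted p = 0.392), and without female statin 1 it was 0.52.

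Cyp3a25 and Cyp3a59, the pair with similar upstream sequence, were also higher on average in females on statin. Cyp3a25 held 189, 217 and 259 CPM on chow and 335, 295 and 418 on statin, with no overlap and a log2 fold change of 0.66 ± 0.192 (edgeR adjusted p = 0.219). Cyp3a59 held 16.9, 13.9 and 24.3 CPM on chow and 27.3, 22.4 and 47.2 on statin. The second statin liver fell below the third chow liver, and the log2 fold change was 0.81 ± 0.265 (edgeR adjusted p = 0.279). Without female statin 3 it was 0.45.

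Cyp3a11 and Cyp3a13 overlapped between the female groups. Cyp3a11 measured 1893, 1800 and 2680 CPM on chow and 2262, 1865 and 3238 on statin, with a log2 fold change of 0.21 ± 0.211 and a 95% interval of -0.25 to 0.67 (edgeR adjusted p = 0.864). The value was -0.03 without female statin 3, 0.37 without female statin 2, and 0.14, 0.11 and 0.41 without female chow 1, 2 and 3. Cyp3a13, a form also known from intestine, measured 211, 178 and 203 CPM on chow and 184, 241 and 493 on statin. Its log2 fold change of 0.63 ± 0.286 (edgeR adjusted p = 0.464) was 0.13 without female statin 3.

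Female statin 3 held the highest level among the 3 statin livers for Cyp3a11, Cyp3a13, Cyp3a16, Cyp3a25, Cyp3a41a and Cyp3a59. Of the 8 members, 4 had female groups that did not overlap, all higher on statin, against 6.03% of all genes tested. Unadjusted p was under 0.05 for 7 of 8 members, against 10.5% of all genes. Here and in the counts below the members are not independent, since Cyp3a41a with Cyp3a41b, and Cyp3a25 with Cyp3a59, share read-length stretches. The median log2 fold change of the 8 members was 0.73, and that of all genes 0.01.

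**Figure D2:**
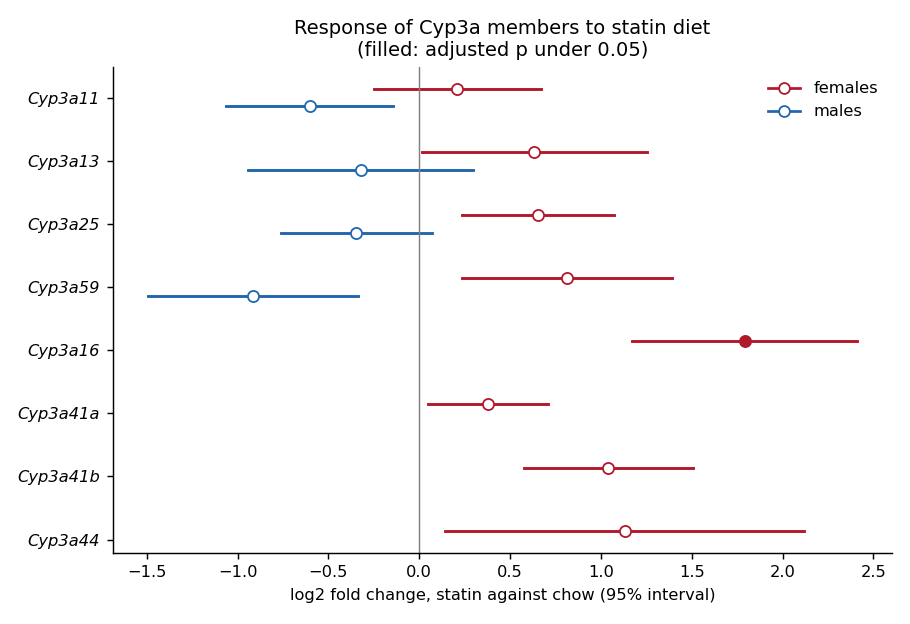
Log2 fold change on statin against chow for each Cyp3a member, in females (red) and males (blue), with lines for the 95% interval and a filled point for adjusted p under 0.05. Cyp3a16 in females is the only filled point, at 1.79; Cyp3a16, Cyp3a41a, Cyp3a41b and Cyp3a44 are not drawn for males, where they lay below 0.53 CPM.

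No member passed the test in males, where 0.0% of all genes were called. The 4 genes expressed in male liver were lower on average with statin. Cyp3a59 measured 34.5, 32.0 and 36.5 CPM on chow and 20.8, 18.9 and 15.004 on statin, without overlap. Its log2 fold change was -0.91 ± 0.265, with a 95% interval of -1.49 to -0.34 (edgeR unadjusted p = 0.00473 and adjusted p = 1.00 over all genes).

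Cyp3a11 likewise did not overlap between the male groups, at 2428, 2526 and 2839 CPM on chow and 1777, 1779 and 1572 on statin. The log2 fold change was -0.60 ± 0.212, with a 95% interval of -1.07 to -0.14 (edgeR unadjusted p = 0.0145, adjusted p = 1.00). Cyp3a13 measured 214, 208 and 256 CPM on chow and 190, 201 and 153 on statin, also without overlap, with a log2 fold change of -0.32 ± 0.285 (edgeR adjusted p = 1.00) that was -0.21 without male statin 3. Cyp3a25 measured 748, 545 and 639 CPM on chow and 593, 512 and 414 on statin. The first statin liver lay above the second chow liver, and the log2 fold change was -0.35 ± 0.191 (edgeR adjusted p = 1.00), or -0.23 without male chow 1 and -0.22 without male statin 3.

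In males, 3 of 8 members had groups that did not overlap, all lower on statin, against 4.3% of all genes tested. Cyp3a11 and Cyp3a59 were the 2 members with an unadjusted edgeR p under 0.05, against 1.96% of all genes. DESeq2 and limma also called 0 of 8 members in males, where DESeq2 called 0.0334% of all genes. The median log2 fold change of the 4 members expressed in males was -0.48, and that of all genes was 0.00360.

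Cyp3a16, Cyp3a41a and Cyp3a44 gave few reads in males. Cyp3a16 gave 6 to 13 counts per liver on chow and 5 to 11 on statin, Cyp3a41a 14 to 25 and 13 to 21, and Cyp3a44 14 to 26 and 14 to 27. The groups overlapped for each, with an edgeR adjusted p of 1.00. Cyp3a41b gave 0 to 2 counts on chow and 0 to 1 on statin, at or under the floor, and no fold change is given for it in males.

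Whether the sexes differed in their response was tested by an interaction term. The female minus male difference in log2 fold change was 1.73 ± 0.375 for Cyp3a59, with a 95% interval of 0.91 to 2.55, but the edgeR adjusted p was 0.247 over all genes. Cyp3a25 differed by 1.00 ± 0.271 (edgeR adjusted p = 0.312). The difference was 0.81 ± 0.299 for Cyp3a11 (edgeR adjusted p = 0.479) and 0.96 ± 0.403 for Cyp3a13 (edgeR adjusted p = 0.572). Without female statin 3 the Cyp3a13 difference was 0.44.

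For the genes with few male reads the interaction was 1.87 ± 0.689 for Cyp3a16 (edgeR adjusted p = 0.482), 0.38 ± 0.297 for Cyp3a41a (edgeR adjusted p = 0.883) and 0.77 ± 0.846 for Cyp3a44 (edgeR adjusted p = 0.950). When single livers were left out, the difference for Cyp3a41a ran from 0.16 (without male chow 2) to 0.61 (without male statin 2). That for Cyp3a44 ran from 0.15 (without female statin 1) to 1.19 (without female chow 2), and it was 0.44 without male chow 1, 0.49 without female chow 3 and 1.16 without female statin 2. No member passed by edgeR, as 0.0% of all genes did, while 5 of 8 members had an unadjusted p under 0.05 against 8.01% of all genes. DESeq2 called 2 of 8, Cyp3a59 at adjusted p = 0.00440 and Cyp3a25 at adjusted p = 0.0404, against 1.02% of all genes, and limma called 0. The edgeR test without a filter on low counts called Cyp3a59 at adjusted p = 0.00329, against 0.392% of all genes. The change in Cyp3a16 in females is therefore not shown to differ from that in males.

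Between the sexes on chow, the 4 genes of the first family stood far higher in females. They reached the filtered table through the female livers alone and so had to differ between the sexes there, and their calls in that table are not counted. Cyp3a41a was higher in females by 9.23 ± 0.231 on the log2 scale, 599-fold, Cyp3a16 by 8.51 ± 0.431, 365-fold, and Cyp3a44 by 8.39 ± 0.659, 335-fold. When all 26304 genes with a count were fitted without the filter, edgeR's adjusted p was 1.06e-23 for Cyp3a41a, 6.27e-20 for Cyp3a16 and 2.41e-16 for Cyp3a44, with 5.74% of these genes called. Since the male level rests on at most 27 counts a liver, these folds depend on few male reads.

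Cyp3a41b had 1704 counts in the 3 female livers on chow and 3 in the 3 male livers, a ratio per total count of 627 with an exact 95% counting interval of 214 to 3042. On statin it had 3884 and 2 counts, a ratio of 1691 with an interval of 468 to 13969. Its edgeR adjusted p without the filter was 3.68e-19 on chow. Cyp3a41a, Cyp3a16 and Cyp3a44 were also higher in females on statin, by 9.61, 10.38 and 9.16 on the log2 scale. Without the filter, their edgeR adjusted p on statin was 5.00e-24, 1.30e-21 and 3.00e-17, and 3.88% of all genes were called.

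Of the 4 members that both sexes express, edgeR called 2 between the sexes on chow, Cyp3a25 and Cyp3a59, both lower in females, against 4.49% of all genes called lower and 10.4% called in either direction. On statin edgeR called none of these 4, against 6.28% of all genes, while DESeq2 called Cyp3a25 and Cyp3a59, against 10.7%. Cyp3a25 was higher in males on chow, with 545 to 748 CPM in males and 189 to 259 in females, and a female against male log2 fold change of -1.54 ± 0.195 (edgeR adjusted p = 0.000416). It is a 2.90-fold difference. On statin the livers held 414 to 593 CPM in males and 295 to 418 in females, which overlapped, and the log2 fold change was -0.54 ± 0.191 (edgeR adjusted p = 0.134, DESeq2 adjusted p = 0.0455). The difference between these comparisons is the interaction given above, which did not pass.

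Cyp3a59 was higher in males on chow, with 32.0 to 36.5 CPM in males and 13.9 to 24.3 in females, and a female against male log2 fold change of -0.90 ± 0.265 (edgeR adjusted p = 0.0497). The call was lost when any of 7 single livers was left out, at adjusted p up to 0.164: female chow 1 and 2, male chow 1, 2 and 3, and male statin 2 and 3. It was also lost with the stricter filter on low counts (adjusted p = 0.0613). On statin the order was the other way round, with 15.004 to 20.8 CPM in males and 22.4 to 47.2 in females, and a log2 fold change of 0.83 ± 0.265 that did not pass (edgeR adjusted p = 0.0936). It passed in 3 of 22 alternatives, namely by DESeq2 (adjusted p = 0.0334), by edgeR without a filter on low counts (adjusted p = 0.0242) and without female statin 2 (adjusted p = 0.0423). Over all 22 the adjusted p ran up to 0.299, without female statin 3, where the log2 fold change was 0.45.

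Cyp3a11 did not pass between the sexes, at -0.29 ± 0.211 on chow (edgeR adjusted p = 0.444) and 0.52 ± 0.212 on statin (edgeR adjusted p = 0.190), with every female liver on statin above every male liver on statin. Without female statin 3 the latter value was 0.27, and the value on chow was -0.19 without female chow 2 and -0.50 without female chow 3. Cyp3a13 likewise did not pass, at -0.20 ± 0.285 on chow (edgeR adjusted p = 0.728) and 0.76 ± 0.286 on statin (edgeR adjusted p = 0.157). The value on statin was 1.01 without female statin 1, where it passed at adjusted p = 0.0327, and 0.24 without female statin 3, at adjusted p = 0.548. The value on chow was -0.10 without male chow 3.

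**Figure D3:**
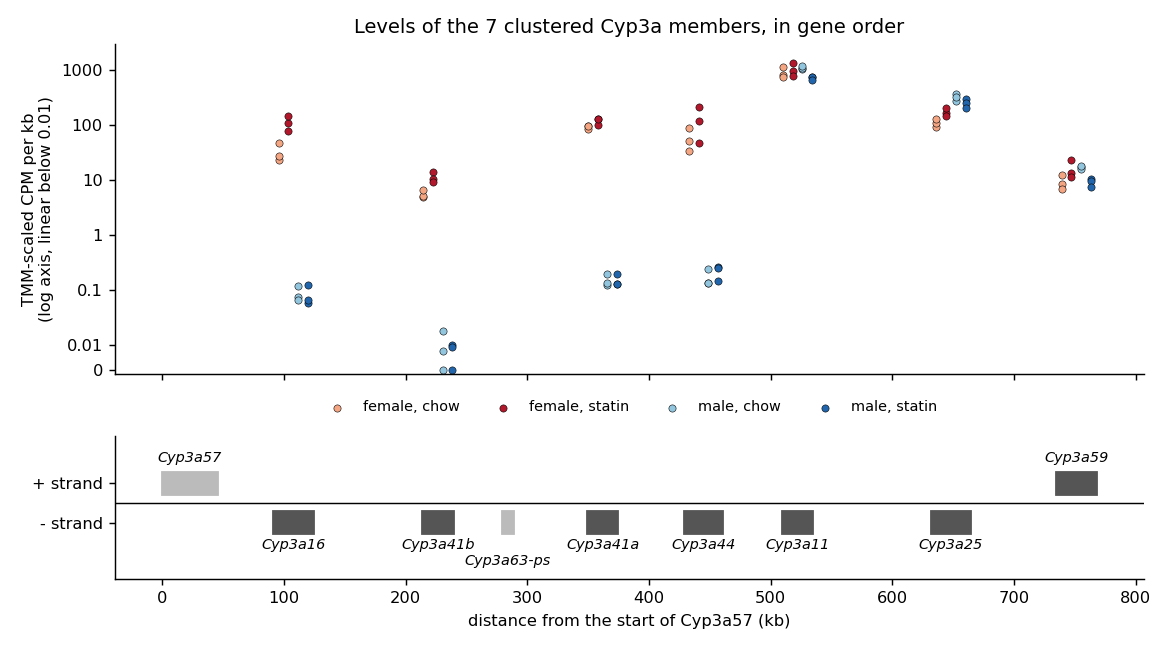
Levels per kb of transcript of the 7 clustered members in each liver (upper panel, logarithmic axis that is linear below 0.01) above a map of the cluster to scale, in kb from the start of Cyp3a57 (lower panel; dark boxes are members, pale boxes other Cyp3a genes). The 4 genes with male levels below 0.27 lie side by side, followed by Cyp3a11, Cyp3a25 and Cyp3a59, which both sexes expressed.

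The sex pattern followed the order along the chromosome. The genes from Cyp3a16 to Cyp3a44, whose starts lie 91.0 to 429 kb from the start of Cyp3a57, had the female expression, and the genes from Cyp3a11 on, starting at 509 kb, were expressed in both sexes. Among the former lies the pseudogene Cyp3a63-ps, at 0.877 to 3.04 CPM in female livers and 0 to 1 counts in male livers. Cyp3a57, at the near end of the cluster, gave 0 to 14 counts per liver. A pseudogene named Cyp3a61-ps1 is annotated outside the cluster and was not analysed here.

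The summed mRNA of the 8 members was 1282 ± 222 CPM per kb in females on chow and 1713 ± 459 in females on statin, which overlapped between livers. In males it was 1524 ± 102 on chow and 1053 ± 102 on statin, with the ranges 1437 to 1636 and 937 to 1130. Cyp3a11 made up 66.9% to 74.3% of the sum in females on chow and 57.6% to 63.1% in females on statin. The 4 female genes made up 11.95% to 17.8% on chow and 18.7% to 27.9% on statin. Neither of these shares overlapped between the female diets. In males the 4 female genes made up at most 0.0537% of the sum, and Cyp3a25 made up 18.96% to 24.9% on chow and 22.1% to 26.3% on statin. These sums and shares were not tested.

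**Figure D4:**
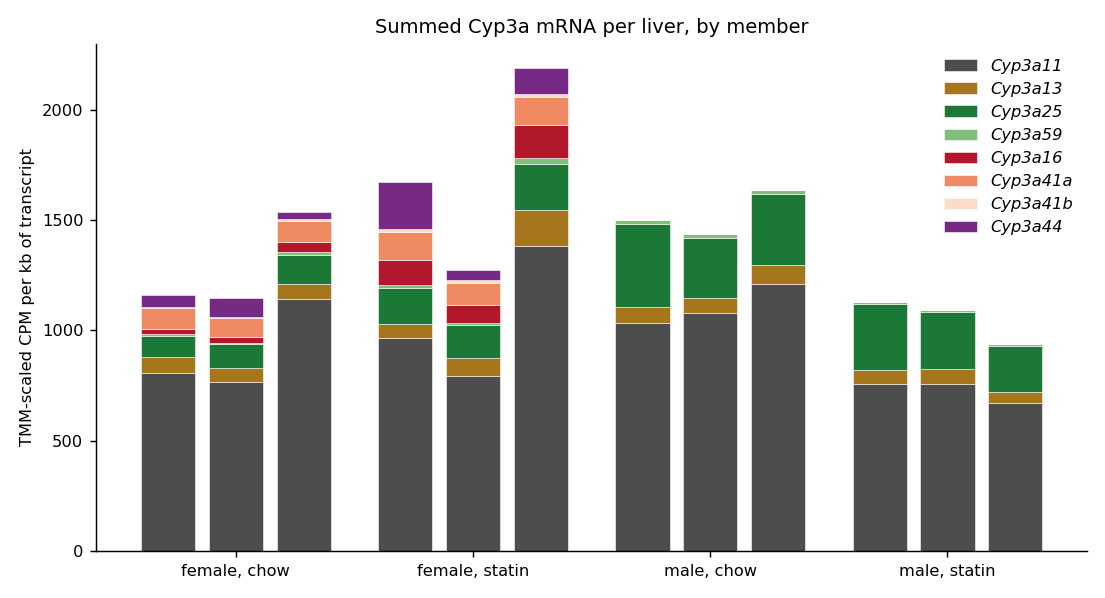
Summed Cyp3a level of each liver in TMM-scaled CPM per kb of transcript (vertical axis), stacked by member, with 3 livers per group. Female bars carry Cyp3a16, Cyp3a41a, Cyp3a41b and Cyp3a44, at most 27.9% of a bar, and male bars consist almost wholly of Cyp3a11, Cyp3a25, Cyp3a13 and Cyp3a59.

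The genes outside the family whose pattern over the 12 livers was most like a member's were found by Pearson's r of log2(CPM + 1). For the 4 female genes the livers fall into 2 clusters by sex, so that r is set largely by the gap between them. Cyp2c69, a P450, and Sult2a1, a sulfotransferase, were nearest to Cyp3a16 (r of 0.992 and 0.990). Sult2a2, Cyp2a4 and Xist, the RNA of the inactive X chromosome, were nearest to Cyp3a41a (r from 0.996 to 0.998). Cyp2c69, Nt5e and Fam19a2 were nearest to Cyp3a41b (r from 0.987 to 0.995), and Sult3a1, Nt5e and Aldh3b3 to Cyp3a44 (r from 0.991 to 0.997). For Cyp3a25 they were Rab24, Pdilt and Thtpa (r from 0.95 to 0.96), and for Cyp3a59 Acat1, Hsd17b13 and Pgm3 (r from 0.90 to 0.91). For Cyp3a13 they included Ndufa4l2 and Pnrc1 (r of 0.945 and 0.921), and for Cyp3a11 BC005624, Commd9 and D10Jhu81e (r from 0.88 to 0.92). These are descriptions over 12 libraries that share their groups.

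The receptors and factors known to act on Cyp3a genes were read from a list of 10, of which edgeR called none on statin in either sex or in the interaction. Unadjusted p was under 0.05 for 1 of the 10 in females and 0 in males. Here and in the lists below, the shares of all genes are 0.1% called and 10.5% at an unadjusted p under 0.05 in females, and 0.0% and 1.96% in males. DESeq2, which called 2.26% of all genes in females, called Nr1i3 there. EdgeR without a filter on low counts, which called 0.563% of all genes in females and 0.392% in the interaction, called Nr1i3 in both. Limma called none of these genes or of those in the lists below on statin, and DESeq2 none in males. The median log2 fold change was 0.15 in females and -0.07 in males, beside 0.01 and 0.00360 for all genes. Nr1i3, which encodes CAR, measured 128 ± 24.1 CPM in females on chow and 295 ± 147 on statin, with no overlap and a log2 fold change of 1.21 ± 0.318 (edgeR adjusted p = 0.177). In males it measured 247 ± 54.7 and 197 ± 19.6 CPM. Nr1h4, the bile acid receptor FXR, had a log2 fold change of 0.34 in females (edgeR adjusted p = 0.484). Nr0b2, the corepressor SHP, had 0.45 in males, and Nr3c1, the glucocorticoid receptor, -0.25 (edgeR adjusted p = 1.00 for both). Between the sexes edgeR called 1 of the 10 on chow and 1 on statin, against 10.4% and 6.28% of all genes. It was Nr0b2 both times, lower in females by -1.05 on the log2 scale on chow (edgeR adjusted p = 0.0488). On statin the value was -2.11 (edgeR adjusted p = 0.00170). Nr1h4 and Nr1i3 were also lower in females on chow, at -0.54 and -0.95 (edgeR adjusted p = 0.0503 and 0.0777). Without the filter edgeR called all 3 on chow, against 5.74% of all genes with a count.

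Of 11 genes for the supply of electrons and heme to P450 enzymes, edgeR called none on statin, with 4 at an unadjusted p under 0.05 in females, all higher, and 0 in males. DESeq2, and edgeR without the filter, called Alas1 and Cpox in females. The median was 0.29 in females and -0.04 in males. Alas1, the rate-limiting enzyme of heme synthesis, measured 245 ± 94.8 CPM in females on chow and 541 ± 122 on statin (log2 fold change 1.14 ± 0.333, edgeR adjusted p = 0.219), and 371 ± 102 and 512 ± 181 CPM in males. Cpox, a later enzyme of the same pathway, measured 92.2 ± 11.2 and 172 ± 60.4 CPM in females (log2 fold change 0.90 ± 0.209, edgeR adjusted p = 0.126). In males Alad, the second enzyme of the pathway, had a log2 fold change of -0.22 (edgeR adjusted p = 1.00).

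The 16 genes outside the family that respond to PXR or CAR gave a median of 0.51 in females and -0.07 in males. EdgeR called none on statin, with 4 at an unadjusted p under 0.05 in females, all higher, and 0 in males. DESeq2, and edgeR without the filter, called Cyp2c54 in females and in the interaction. Cyp2c54, a P450 of another family, measured 29.8 ± 0.761 CPM in females on chow and 96.7 ± 64.5 on statin, with a log2 fold change of 1.70 ± 0.343 (edgeR adjusted p = 0.0968). Cyp2c37 had 0.76 ± 0.313 in females (edgeR adjusted p = 0.412). Cyp2b10, a P450, and Ces2a, a carboxylesterase, went the other way, at -0.21 ± 0.470 and -0.02 ± 0.175 (edgeR adjusted p = 0.968 and 0.995). The rest of the list was higher on average in females on statin. In males the lowest p-values were those of Slco1a4, an uptake transporter, at -0.41 and of Ugt1a1, the bilirubin-conjugating enzyme, at -0.28 (edgeR adjusted p = 1.00 for both). Between the sexes on chow edgeR without the filter called 5 of the 16 higher in females and 5 lower, against 5.74% of all genes called in either direction. That share includes the genes below the filter, and with the filter it was 10.4%.

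Among 12 genes of statin transport and handling edgeR called none on statin, with 3 higher and 1 lower at an unadjusted p under 0.05 in females, 0 in males, and medians of 0.13 in females and 0.02 in males. Ces1d, a carboxylesterase, measured 540 ± 157 CPM in females on chow and 1275 ± 681 on statin (log2 fold change 1.24 ± 0.312, edgeR adjusted p = 0.154), and DESeq2 and edgeR without the filter called it there and in the interaction. Slco1b2, the hepatic uptake transporter of organic anions, had a log2 fold change of 0.48 ± 0.188 in females (edgeR adjusted p = 0.382). In males Pon3, a lactonase, had 0.12 and Abcb1b, an efflux pump, -0.23 (edgeR adjusted p = 1.00 for both).

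The 11 genes of growth hormone signalling and sex-biased expression gave medians of 0.11 in females and -0.02 in males. EdgeR called none on statin, with 3 at an unadjusted p under 0.05 in females and 1 in males, all higher. DESeq2 called 3 in females, Igf1, Stat5a and Prlr, the prolactin receptor, and Stat5a in the interaction. EdgeR without the filter called Prlr in females. Stat5a, a transcription factor downstream of the growth hormone receptor, measured 10.4 ± 0.688 CPM in females on chow and 16.6 ± 0.143 on statin (log2 fold change 0.67 ± 0.146, edgeR adjusted p = 0.110). Igf1, a growth factor gene that growth hormone induces, had 0.57 ± 0.135 in females (edgeR adjusted p = 0.129). Cux2, a female-specific liver factor, measured 0.487 ± 0.115 CPM in males on chow and 2.02 ± 2.16 on statin (log2 fold change 2.04 ± 0.785, edgeR adjusted p = 1.00). Its SD in males on statin exceeded its mean, so the 3 livers were uneven, and no value with single livers left out is given for it. Between the sexes on chow edgeR without the filter called 2 of the 11 higher in females, Cux2 and Prlr, and 3 lower, Bcl6, Ghr and Igf1, against 5.74% of all genes called in either direction. On statin it called Cux2 and Prlr higher and Bcl6 lower, against 3.88%. Both shares include the genes below the filter, and with the filter they were 10.4% on chow and 6.28% on statin. Cux2, which passed the filter through the female livers, was higher in females by 6.36 on chow and 4.26 on statin on the log2 scale.

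The 12 genes around the statin target, with Pmvk and Insig1 among them, had medians of -0.36 in females and 0.15 in males. None passed on statin by edgeR, with or without the filter, or by DESeq2, or had an unadjusted edgeR p under 0.05 in either sex. In females the lowest p-values were those of Pmvk, a mevalonate pathway kinase (log2 fold change -0.72), and Insig1, a sterol sensor (-0.34), at edgeR adjusted p = 0.551 and 0.692. In males Pmvk had 0.63 (edgeR adjusted p = 1.00).

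CYP3A enzymes are known to be concentrated around the central vein, so zonation genes were read as well. Of 8 pericentral genes edgeR called none on statin, with 2 at an unadjusted p under 0.05 in females and 0 in males, and medians of 0.17 in females and 0.13 in males. Cyp2e1 had 0.72 ± 0.201 in females (edgeR adjusted p = 0.211, called by DESeq2) and Cyp1a2 0.75 ± 0.321 (edgeR adjusted p = 0.432), and in males Slc1a2 had 0.33 and Glul 0.16 (edgeR adjusted p = 1.00 for both). Of 7 periportal genes neither tool called any, with 1 at an unadjusted edgeR p under 0.05 in females and 0 in males, and medians of -0.20 and 0.14. Hsd17b13 had 0.32 in females and -0.31 in males, Sds -0.49 in females and Pck1 0.63 in males (edgeR adjusted p = 0.460, 1.00, 0.650 and 1.00).

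**Figure D5:**
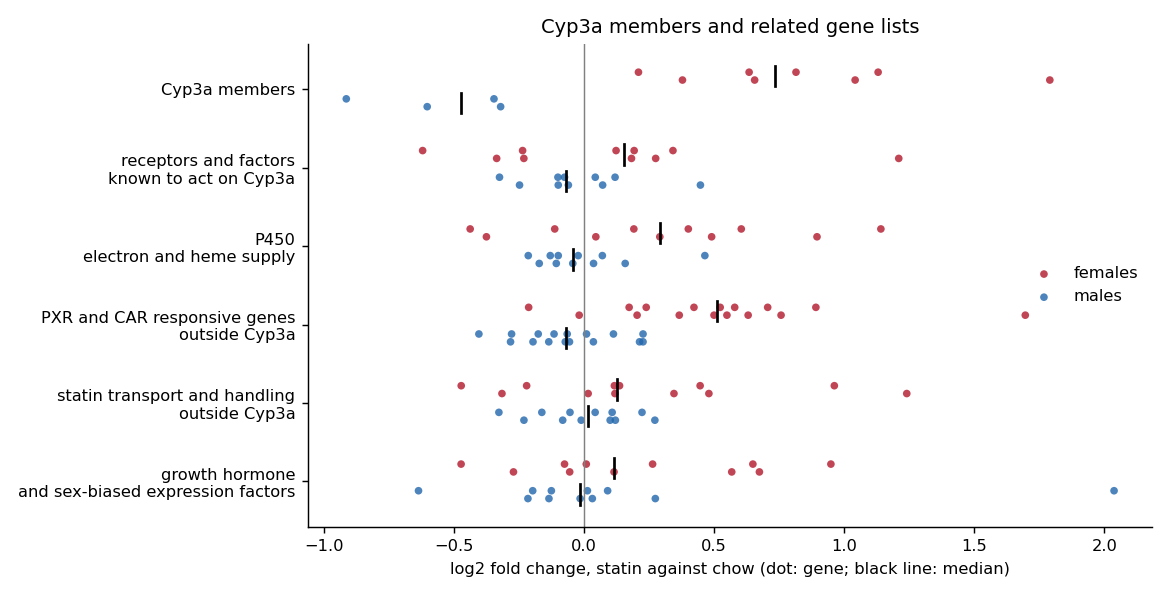
Log2 fold change on statin against chow (horizontal axis) of each gene of the Cyp3a family and of 5 related lists, in females (red) and males (blue); each dot is a gene and black lines are medians, and for Cyp3a in males only the 4 expressed members are drawn. The Cyp3a dots lie between 0.21 and 1.79 in females and between -0.91 and -0.32 in males.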

How the data were processed

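Poly(A) RNA of 12 livers was sequenced as 50-base pairs. Per the labels and the study's methods, the authors aligned reads to GRCm38 with STAR 2.4.1a, counted them with HTSeq and used edgeR 3.28.1. Whether HTSeq counted by strand is not given in the sources used here. The authors deposited a CPM table of 48526 genes and a filtered table of 11968 genes; the latter is named as normalized but holds raw counts, equal to the whole reads recovered from the deposited CPM values (100.0% whole within 0.01 of a read). Its genes reach 1 CPM in at least 6 livers. IDs were matched to symbols by GENCODE M21 (99.8% of the count table).

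Counts were fitted with edgeR 4.0.16 (glmQLFit, glmQLFTest, TMM, library size from the full table) over 4 groups in 1 model, two-sided, with Benjamini-Hochberg adjustment over 11968 genes. Levels are TMM-scaled CPM, divided by the longest coding transcript where genes are compared. Fold changes are reported as log2 with the standard error. The script was tested on simulated data. Alternatives were DESeq2 1.42.0, limma 3.58.1 on log2(CPM + 1) and log2(CPM + 0.1), other scalings and filters, the replicate number as a block, leaving out each liver, and Cyp3a41a with Cyp3a41b summed.

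Named were all members and other Cyp3a genes; in each list, genes past adjusted p 0.05 in a statin comparison or the interaction, otherwise the 2 lowest p-values in each sex; and the 3 genes most like each member. Some genes that this rule names are not reported here. Genes called between the sexes, and those lower in females on statin among the genes that respond to PXR or CAR, were named after their values were seen. So was the choice of motifs. Members and lists were chosen with earlier results of these data known.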

Additional observations from a re-analysis of the deposited data

How the results depend on the processing

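The count of Cyp3a members past adjusted p 0.05 in females, 1 with the reported test, was 3 by DESeq2, 2 by limma with a pseudocount of 1, 2 without a filter on low counts, and 0 by library size alone, with a stricter filter (mean of 10 CPM or more) or when only the groups compared entered the fit; leaving out single livers gave 0 to 1. For the interaction, the count of 0 became 2 by DESeq2 and 1 without a filter on low counts. The cause of these differences was not tested. Under the other alternatives the counts stayed within 1.5 times the reported ones in every comparison.

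Of 757 recomputed fold changes for 35 results, 724 kept their direction and their side of the threshold, 20 lost the call, 12 gained it, and 1, Cyp3a11 in females, turned to -0.0265 without female statin replicate 3, within a range of -0.0265 to 0.41 when single livers were left out. With the replicate number as a block, 1 member was called in females (Cyp3a16, adjusted p = 0.0425). Same-numbered livers are different mice. After each group was centred on its mean, correlations of same-numbered livers ran from -0.54 to 0.15 in females and from -0.56 to 0.07 in males. Those of other pairs ran from -0.17 to 0.58 and from -0.41 to 0.58. Centring 3 livers forces mixed signs, so these values cannot show whether the numbers link livers. The block called 5 genes in females in place of 12. A block also leaves less data to estimate the spread, so that count cannot show it either. Over all genes, DESeq2 called 270 in females against 12, 4 in males against 0 and 122 in the interaction against 0. Scaling by library size alone called 565 genes higher and 653 lower in females on chow, against 713 and 537, and 354 and 327 on statin, against 524 and 227. Depth limits Cyp3a41b in males, at 0 to 2 counts a liver.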
